A study of Sus scrofa with 9 samples.

Results

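miR-216b-5p is the product of the 5′ side of the mir-216b hairpin, 1 of 100 conserved miRNA arms counted in the longissimus dorsi, the long back muscle, of female Jinhua pigs. It was chosen by name, for its large fall between the fetal and the newborn library, so its values at those 2 stages describe the choice and are given with no test. The study followed small RNA through muscle development at 5 stages with 9 libraries from 15 pigs: fetuses at day 90 of gestation (E90), newborns (day 0), day 30, day 180 and 7 years. The 3 youngest stages were each sequenced as 1 library and the 2 adult ages as 3 replicate libraries. The labels name no treatment, and they do not say which pigs went into which library.

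In mammals mir-216b is known as a neighbour of mir-216a and mir-217, a small group of miRNA genes best known for strong expression in the exocrine pancreas. A miRNA guides a silencing complex to messenger RNAs that pair with its seed, bases 2 to 8 of the mature strand.

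The mature strand and its hairpin are shown because seed and hairpin are what identify this miRNA in the data. In the first sequence capitals mark the seed, and in the second they mark the 22 nt product counted in these libraries.
miR-216b-5p: aAATCTCTgcaggcaaatgtga
mir-216b: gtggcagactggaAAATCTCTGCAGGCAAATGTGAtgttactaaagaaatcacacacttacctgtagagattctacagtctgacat

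The deposited table placed the 86 nt hairpin on the plus strand of chromosome 3, from 90047313 to 90047398 of the pig assembly Sscrofa10. The mature strand ran from position 14 to position 35 of the hairpin. In the authors' own marking of the hairpin the capitals of the 5′ side stopped at position 32, so the counted product was longer than the marked one at its 3′ end. A second marked run, from position 54 to 75, is the 3′ side of the hairpin, and no copies of it were analysed here. RNAfold gave the hairpin a minimum free energy of −36.5 kcal/mol with 19 of the 22 mature bases paired, all 7 seed bases among them. Their partners, positions 66 to 72, spell AGAGATT, the sequence a target would need to pair with the whole seed. Per base the energy was −0.424 kcal/mol, against a median of −0.388 over 82 conserved hairpins folded in the same way, of which 26 had a lower value.

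No other arm carried the seed of miR-216b-5p, neither over bases 2 to 8 nor over bases 2 to 7, among the 495 conserved and putative new arms searched. Of mir-216a and mir-217, the known neighbours, no arm was measured in the tables used here. The RefSeq table of assembly Sscrofa11.1 lists MIR216-1 and MIR217-1 as adjacent genes on pig chromosome 3, between CCDC85A and EFEMP1. In the deposited tables the measured precursor nearest to mir-216b on chromosome 3, that of PN-100545230-3p, lay 10.5 Mb away. The nearest conserved one, mir-1842, lay 47.6 Mb away. miR-216b-5p was thus measured with no neighbour of its own group beside it.

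miR-216b-5p ranked 26th of the 83 conserved arms listed in the fetal library. It was scarce at birth, at the edge of detection at day 30 and not listed in adult muscle. The E90 library held 151 copies among 5042191 high-quality reads, the day 0 library 19 among 4469677 and the day 30 library 3 among 3476614. None of the 3 libraries of day 180 listed it, with 12259667, 10435597 and 9024703 reads, nor did any of the 3 libraries of 7 years, with 6239845, 3720989 and 9389375 reads. The 3 earliest libraries alone thus listed the miRNA, as they did for 9 of the 100 conserved arms, or 9%. Values under 3 are rare in the table, so 1 or 2 copies may go unlisted, and the 3 copies at day 30 are close to that.

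As RPM, copies per 1000000 high-quality reads, the level of miR-216b-5p was 29.9 at E90, with an exact 95% Poisson interval from 25.4 to 35.1. At day 0 it was 4.25 RPM (interval 2.56 to 6.64) and at day 30 it was 0.863 RPM (0.178 to 2.52). The level was highest at E90 and lowest at day 30 among these 3 libraries. Such intervals cover counting error only, since sequenced reads are not independent molecules, and they say nothing of the spread between animals. In bulk muscle, fewer cells that contain a miRNA and less of it per cell cannot be told apart.

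**Figure D1:**
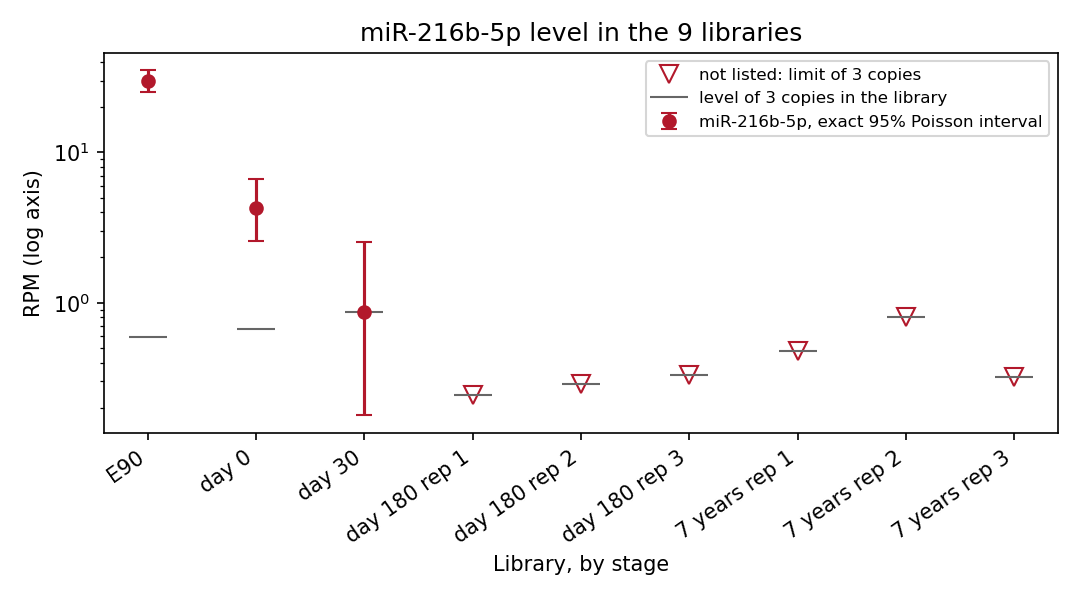
Level of miR-216b-5p in each of the 9 libraries in RPM, on a log axis. Filled points carry exact 95% Poisson intervals, open triangles mark libraries that did not list it, drawn at the level of 3 copies, and grey bars give that level for every library. The level goes from 29.9 at E90 to 4.25 at day 0 and 0.863 at day 30, where it equals 3 copies.

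The fall that led to the choice of this miRNA was 7.04-fold from E90 to day 0, with an exact counting interval from 4.36 to 12.03. The next step rested on few copies: per read, day 0 exceeded day 30 by 4.93-fold, with an interval from 1.45 to 25.99. Over both steps E90 exceeded day 30 by 34.7-fold (interval 11.7 to 170.2). Per read, and against the mean level of 3 copies per library with counting error left out, E90 was at least 104-fold above day 180. It was at least 55.9-fold above 7 years. On the same measure day 0 was at least 14.7-fold above day 180 and at least 7.94-fold above 7 years. These bounds hold per read alone, not per copy of the measured miRNAs, whose part of the reads fell with age.

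The measured miRNAs as a whole also took a smaller part of the reads with age, so the part of miR-216b-5p among them was computed as well. Of all high-quality reads, the copies of both tables made up 2.70% in the fetus, 1.92% at birth, 1.04% at day 30, 0.259% to 0.324% at day 180 and 0.148% to 0.197% at 7 years. miR-216b-5p was 0.127% of the conserved copies at E90 (exact binomial 95% interval 0.108% to 0.149%), 0.0254% at day 0 (0.0153% to 0.0396%) and 0.00943% at day 30 (0.00194% to 0.0275%). Its share thus fell from E90 to day 0, where the ratio per conserved copy was 5.02. From day 0 to day 30 the share was lower again, but the 2 intervals overlapped, so a fall in share at that step was not established. Taken as a limit of 3 copies per library, a different measure from these intervals, 0 copies allow a share of up to 0.00975% in day 180 replicate 1 and up to 0.0614% in 7 years replicate 2, the widest of the 6 limits. All 6 such limits lay above the share at day 30, so a share as low as that was not detectable in any later library. The share at day 0 also lay below the limits of 0.0304%, 0.0614% and 0.0275% in the libraries of 7 years. By share, a fall from day 0 to 7 years was thus not established.

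By copies, miR-216b-5p ranked 26th of 83 conserved arms listed at E90, 43rd of 78 at day 0 and 53rd of 67 at day 30. The first of these steps is the fall it was chosen for. The rank at day 30 rests on 3 copies, a count that other arms shared, so nothing further is read from these ranks.

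The most abundant sequence of miR-216b-5p was the same 22 nt strand in all 3 libraries that listed it, and it equalled the consensus printed above. Of the 56 conserved arms listed in all 3 early libraries, 33 (58.9%) had 1 and the same most abundant sequence in each. The seed of miR-216b-5p therefore did not shift between E90, day 0 and day 30 in the most abundant read. That reading rests on 19 copies at day 0 and on 3 at day 30. Of the 100 conserved arms, 45 had a consensus of 22 nt.

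Whether the miRNA differed between ages that played no part in its choice could be asked of day 180, 7 years and day 30. Between 7 years and day 180 no test could be made: all 6 libraries listed 0 copies, which leaves no value to compare. The level of 3 copies was 0.245, 0.287 and 0.332 RPM in the libraries of day 180 and 0.481, 0.806 and 0.320 in those of 7 years. Levels under these, in either age, would have gone unseen. Between these ages the edgeR quasi-likelihood fit called 6 of 175 arms, or 3.43%.

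For day 30 against day 180, 3 copies in 1 library stood against 0 in 3 libraries. miR-216b-5p passed the filter on low counts through its E90 and day 0 libraries, neither of them part of this contrast. Nothing is therefore read from its edgeR adjusted p = 0.37. The same holds for the 0.0309 obtained with total reads in place of TMM factors, a scaling by the bulk of the arms. The fit called 15 of 175 arms between these ages, or 8.57%. At the level of day 30 the libraries of day 180 would have held 10.6, 9.0 and 7.79 copies and those of 7 years 5.38, 3.21 and 8.10. At the lower bound of the day 30 interval, however, they would have held 1.61 to 2.18 copies at day 180 and 0.662 to 1.67 at 7 years, fewer than the 3 at which the tables usually begin. Over the 6 libraries together that bound comes to 9.09 copies, which empty cells standing for up to 2 copies each could still hide. The level read at day 30 would thus have given more than 3 copies in each library of day 180, but the few copies at day 30 leave its own level too uncertain to establish a further fall.

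Among the conserved arms, the fall of miR-216b-5p from E90 to day 0 ranked 3rd in size among the 32 arms that reached 100 copies at E90 or at day 0. Of these 32, 23 were lower at day 0, with a median ratio of E90 to day 0 of 1.83, and 6 were at least 4-fold lower, which is 18.8%. This contrast chose the miRNA, so nothing is read from its place in that order. Just above it stood miR-409-3p, which went from 4799 to 405 RPM (11.9-fold), and miR-412-5p, from 659 to 81.9 RPM (8.04-fold). Just below it stood miR-541-3p, from 79.7 to 12.1 RPM (6.599-fold), miR-431-3p, from 176 to 31.3 RPM (5.63-fold), and miR-301b-3p, from 48.4 to 10.5 RPM (4.60-fold).

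**Figure D2:**
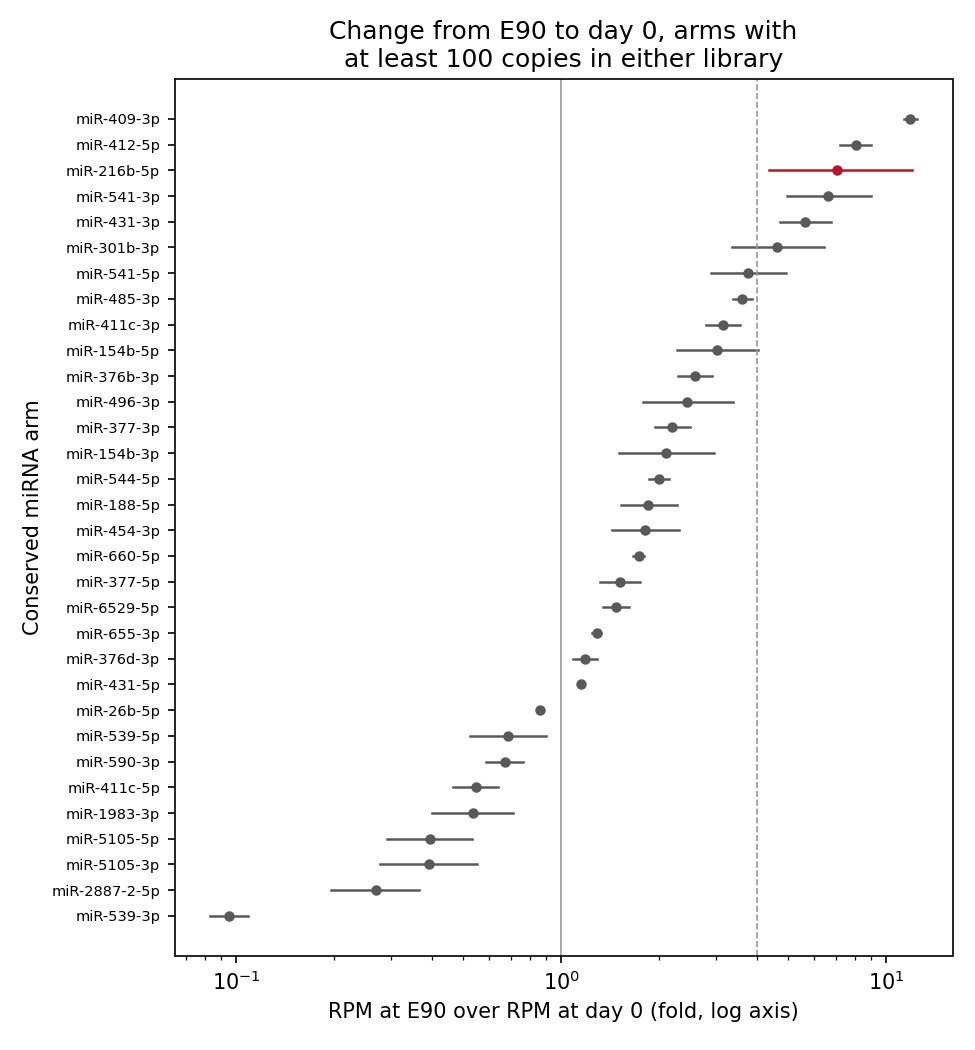
Ratio of the RPM at E90 to that at day 0 for the 32 conserved arms that reached 100 copies at one of these stages, on a log axis, with exact 95% counting intervals. The solid line marks no change, the dashed line 4-fold, and miR-216b-5p, in red, has the 3rd highest ratio, 7.04-fold, with one of the wider intervals, from 4.36 to 12.03.

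Apart from miR-216b-5p and miR-301b-3p, which belongs to the miR-130 and miR-301 family, the arms that were at least 4-fold lower at day 0 came from the DLK1-DIO3 cluster. This imprinted miRNA group is transcribed from the maternally inherited copy alone and is known for high levels in fetal tissues. Of the 32 arms, 15 were on the list of cluster names used here, and 4 of these 15 were at least 4-fold lower at day 0. The median ratio of the 15 was 2.44, against 1.83 over all 32 arms. Arms of miR-154b, miR-376d and miR-411c were not on that list, and none was at least 4-fold lower. Their ratios were 3.14 for miR-411c-3p, 3.01 for miR-154b-5p, 2.10 for miR-154b-3p, 1.18 for miR-376d-3p and 0.546 for miR-411c-5p. Nothing on the cluster is therefore read from these counts. miR-216b-5p on chromosome 3 lies outside the cluster.

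The 6 arms differed in what followed birth. From day 0 to day 30, miR-216b-5p, miR-412-5p (5.08-fold) and miR-431-3p (12.1-fold) were at least 4-fold lower again per read. For miR-216b-5p this rested on 3 copies at day 30. In miR-541-3p the level was 12.1 RPM at day 0 and 18.4 at day 30, and in miR-301b-3p it was 10.5 and 12.9. miR-216b-5p was also the only one of the 6 that no later library listed. miR-301b-3p was listed in all 6 later libraries, miR-409-3p, miR-412-5p and miR-541-3p in 3, and miR-431-3p in 2. miR-216b-5p had the fewest copies of the 6 at E90, and whether this depth accounts for the difference was not tested.

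Of all 100 conserved arms, 33 were listed in none of the 6 later libraries, which is 33%, and miR-216b-5p was 1 of the 9 among them that all 3 early libraries listed. miR-496-3p at 154 copies and miR-154b-3p at 123 had about as many copies at E90 as miR-216b-5p at 151, and both also had 3 at day 30. They differed from it at birth, with 56 and 52 copies at day 0 against 19, or 12.5 and 11.6 RPM against 4.25. Their ratios of E90 to day 0 were 2.44 (1.78 to 3.37) for miR-496-3p and 2.10 (1.505 to 2.96) for miR-154b-3p. The larger ratio of miR-216b-5p is what it was chosen for. The remaining members were at 54 copies or fewer at E90. In miR-409-5p, with 37, 3 and 3 copies, the fall to day 0 was 10.9-fold, and in miR-655-5p, with 19, 21 and 1, there was none from E90 to day 0.

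The profiles most like that of miR-216b-5p were sought over the 9 libraries, by Pearson's r of log2(RPM + 1) among 71 other conserved arms listed in at least 3 libraries. Such r values are a description: the libraries share depth and the general decline of the measured miRNAs, and the median r of all 71 arms was 0.741. The 5 nearest arms were miR-412-3p (r = 0.998), miR-431-3p (0.986), miR-496-3p (0.975), miR-507-3p (0.971) and miR-487a-3p (0.971). Their sequences, with the seed in capitals, show that arms of like profile carry different seeds from miR-216b-5p and from each other.
miR-412-3p: cTTCACCTggtccactagccgt
miR-431-3p: cAGGTCGTcttgcagggcttct
miR-496-3p: tGAGTATTacatggccaatct
miR-507-3p: tGATTGGCacctcttggagtga
miR-487a-3p: aATCATACagggacatccagtt

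miR-412-3p had 54 copies at E90, 10 at day 0 and 3 at day 30, and none later. miR-431-3p had 889, 140 and 9 copies, and 3 in each of 2 libraries of day 180. miR-507-3p, from the X chromosome, had 17, 4 and 3, and miR-487a-3p 35, 12 and 5. Of the 5, 4 belong to the DLK1-DIO3 cluster, and none is listed on chromosome 3. The list of this cluster, without miR-154b, miR-376d and miR-411c, held 21 of the 100 conserved arms. The 5 were drawn from the 71 arms compared, however, so that share is not their matching background. Only 4 conserved arms other than miR-216b-5p lie on chromosome 3. Nothing on shared control is read from these counts. By Spearman's rho, 3 of the 5 remained among the nearest 5, and without the E90 library likewise 3.

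**Figure D3:**
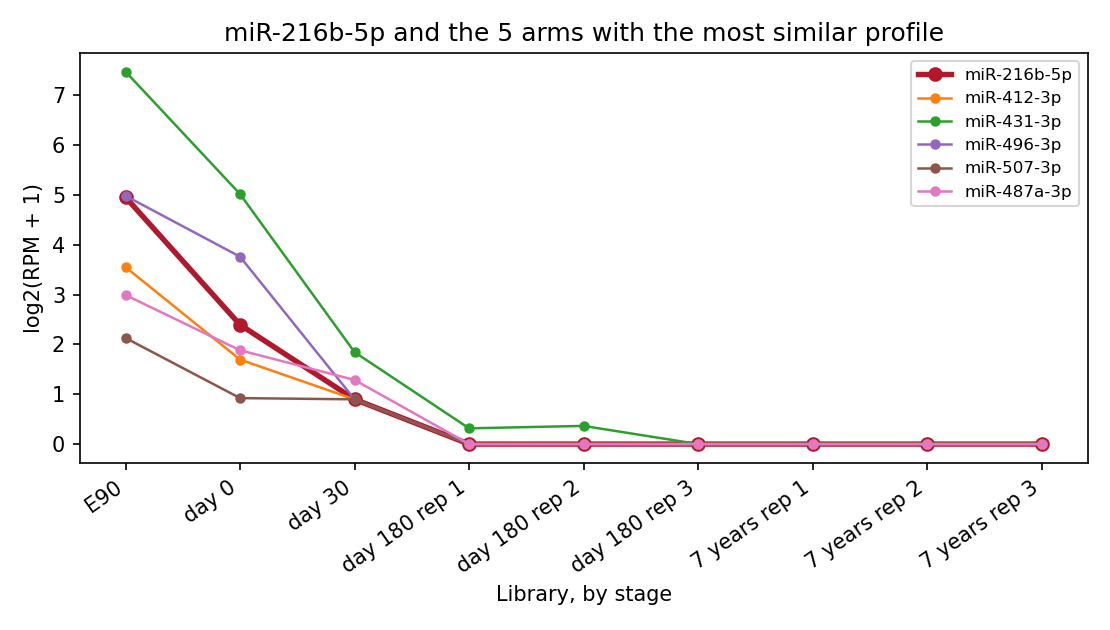
Levels of miR-216b-5p (thick red line) and of the 5 conserved arms with the most similar profile, as log2(RPM + 1), in the 9 libraries ordered by stage. All 6 arms are highest at E90 and lower at day 0, and in the later libraries miR-431-3p alone leaves 0, with 3 copies in each of 2 libraries of day 180, while the other lines lie on top of each other.

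Since miR-216b is better known from the pancreas than from muscle, markers of other tissues were read beside it. Of 4 pancreas families fixed for this purpose, miR-375 alone was measured: miR-375-3p, an islet miRNA, had 8 copies at E90 (1.59 RPM) and was listed in no other library. miR-219-3p, of a family known from myelinating glia, was the one measured arm of 4 nervous tissue families, with 13 copies at E90 (2.58 RPM) and none elsewhere. Both markers were listed at E90 alone, as were 11 of the 100 conserved arms, and neither was listed at day 0, where miR-216b-5p still had 19 copies. From 8 and 13 copies, a fall as large as that of miR-216b-5p would leave fewer than 3, which may go unlisted. Their absence at day 0 thus does not set them apart from miR-216b-5p.

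Epithelial markers gave a mixed picture. The 5 measured arms of 4 of 10 families summed to 11.7 RPM at E90, 5.59 at day 0, 14.4 at day 30, 1.25 to 2.20 at day 180 and 0.806 to 1.12 at 7 years, so their sum was not highest at E90. miR-200b-3p had 26 copies at E90, 0 at day 0 and 3 at day 30, and miR-200c-3p 13 at E90 alone, whereas miR-141-3p had 14, 17 and 32. The blood marker miR-223-3p was at 2.58 RPM at E90, 5.59 at day 0, 4.03 at day 30, 2.22 to 7.57 at day 180 and 0.959 to 3.85 at 7 years, with no fall like that of miR-216b-5p. The part of other tissues in the level of miR-216b-5p was not tested.

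Muscle markers were little guide to the tissue at E90. Of 8 muscle families, 2 were matched by name, miR-208a and miR-1, and none of the 3 matched arms was listed at E90. These 3 arms summed to 25.1 RPM at day 0, 12.7 at day 30 and at most 0.383 in the later libraries. The arm miR-1a-2-5p, whose name the list did not match, is not in these sums. It had 5 copies at E90 (0.992 RPM), 40 at day 0 (8.95 RPM) and 6 at day 30 (1.73 RPM). Later it had 5 copies in day 180 replicate 1, 4 in day 180 replicate 2 and 7 in 7 years replicate 3. Other miRNAs that define muscle, such as miR-133 and miR-206, were not analysed here. Most of the sum at day 0 was 1 arm, miR-208a-3p, at 21.7 RPM and 7.77 at day 30, while miR-1-2-3p was at 1.57 RPM at day 0 and 4.89 at day 30.

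**Figure D4:**
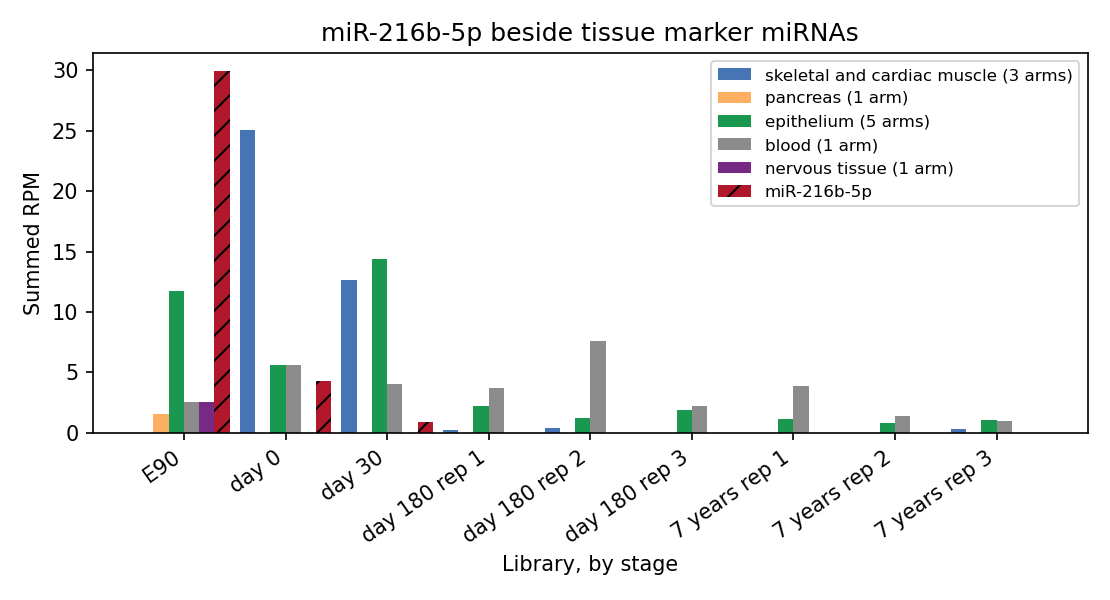
Summed RPM of the measured arms of 5 marker lists and the RPM of miR-216b-5p (hatched) in each of the 9 libraries. miR-216b-5p is the tallest bar at E90 at 29.9 RPM, and the pancreas and nervous tissue lists appear at E90 alone. The muscle list, drawn without miR-1a-2-5p, is at 0 at E90 and is the tallest at day 0 at 25.1 RPM.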

How the data were processed

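Small RNA of 10 to 40 nt was gel-purified and read on the Illumina Genome Analyzer II, as the labels' protocols state. The deposited tables give counts: whole-number copies of each arm per library, its most abundant sequence and, per the file headers, the high-quality reads of each library and precursor positions on Sscrofa10. The aligner, the miRNA caller and the annotation are not named in the labels or file headers. Empty cells (416 of 900 in the conserved table, where 5 values were under 3) were taken as 0 copies. RPM used the high-quality reads. Intervals were exact (scipy 1.17.1), and hairpins were folded with ViennaRNA 2.7.2.

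Stages were contrasted with edgeR 4.0.16 in R 4.3.3 (TMM on the high-quality reads, filterByExpr with minimum count 10 and minimum total 15, robust quasi-likelihood fit with a term per stage, Benjamini-Hochberg adjustment, threshold 0.05) over both tables, after identical putative new arms were merged (426 to 395), and the procedure was tested on simulated data. Stages with 1 library were taken to vary as the replicated ones do. The lowest TMM factor was 0.375 (7 years replicate 2) and the highest 4.25 (E90). The p-values reflect library-to-library spread alone, possibly technical. Named arms were miR-216b-5p, arms of its gene group or seed, the 5 nearest in profile and the 5 nearest in rank of the fall. Arms of the marker lists are named too, and the other arms were picked after their values were seen. The miRNA, the lists and the tests were chosen with earlier results of these data known.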

Additional observations from a re-analysis of the deposited data

How the results depend on the processing

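The ratio of E90 to day 0 for miR-216b-5p, 7.04 per read, was 5.02 per conserved copy, 4.998 per copy of both tables and 5.58 per TMM effective library size, all within its counting interval. Per TMM effective library size its level was 7.05 RPM at E90, 1.26 at day 0 and 0.39 at day 30. Day 30 against day 180 was called with total reads alone (edgeR adjusted p = 0.0309). The other alternatives gave adjusted p-values from 0.21 to 0.88, and leaving out 1 library gave 0.338 to 0.62. The cause was not tested, and with 3 copies against 0 nothing on stability is read from these p-values. Arms called between 7 years and day 180, 6 in all, numbered 14 with total reads, 13 with a stricter filter, 17 with conserved arms alone, 2 with the 6 libraries of these ages and 1 with these and a replicate block, and 2 to 8 leaving out 1 library. For day 30 against day 180, 15 in all, they numbered 38, 23 and 48 with total reads, a stricter filter and empty cells as 2 copies, and 6 to 15 leaving out 1 library. Between 7 years and day 180 miR-216b-5p had 0 copies throughout, so no alternative tests it, and the 6-library fits, with or without the block, dropped it. Same-numbered libraries of the 2 ages had deviations correlated at −0.00745, −0.145 and −0.143, and differently numbered ones at −0.0832 to 0.191. No pairing by number was seen, but with 3 libraries per age such values cannot exclude one. Of the 5 arms nearest in profile, 3 remained by Spearman's rho and 3 without E90. Adding another arm of the hairpin or sequence gave no value, since none was measured. Single libraries at E90, day 0 and day 30 and 3 copies at day 30 limit every statement on miR-216b-5p.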

Other observations

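The E90 library held 11 conserved arms that no other library listed, at 3 to 13 copies each, far fewer than the 151 copies of miR-216b-5p. miR-219-3p and miR-200c-3p had 13 copies each, miR-876-5p 12, miR-375-3p 8 and miR-509-5p 6. miR-509-5p lies on the X chromosome, as does miR-507-3p, which had 17 copies at E90, 4 at day 0 and 3 at day 30. These values were picked after the counts were seen and carry no test.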
